A study of Mus musculus with 18 samples.

Results

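The unfolded protein response and the integrated stress response were followed through 38 genes in mouse bone marrow, out of 18194 genes that the arrays named. The members were listed by symbol, and each gene was read from the brightest of the probesets annotated to its symbol alone. They fall into an Xbp1/Atf6 arm of 26 genes, which serve protein folding, degradation and transport in the endoplasmic reticulum, and an Atf4 arm of 12 genes, which hold the regulators of translational control and genes of amino acid and redox metabolism. All 38 genes were found and all 38 stood above the limit on dim genes, a mean of 3.30 on the log2 scale, so that they belong to the 14505 genes tested. Slc7a11, with group means of 3.44 in CCAT2-GT mice and 3.37 in WT mice, lay just above that limit.

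RNA came from flash-frozen bone marrow cells of 18 C57Bl6 mice, with 1 Affymetrix array for each mouse. The 6 CCAT2-GT mice are the DRAI+ group. In their identifiers, replicates 1, 2 and 3 carry the letter G and replicates 4, 5 and 6 the letter T, which the labels do not explain. Animals named for the G allele (CCAT2-G, 4) or the T allele (CCAT2-T, 4) make up the 8 DRAI- mice, and 4 mice are wild type (WT). The engineered animals overexpress the long non-coding RNA CCAT2, as its G or its T allele, throughout the body, and the title of the series concerns myeloid malignancy. The labels do not explain the DRAI status or the genotype of the GT animals, and they give no promoter, founder line, age or sex. The transgene itself was not analysed here. Titles call the mice biological replicates, and nothing in them says whether some shared a litter, so the p-values measure only the spread between these animals.

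The endoplasmic reticulum folds secreted and membrane proteins, and unfolded clients are sensed there by Ern1 (IRE1), Atf6 and Eif2ak3 (PERK). Ern1 splices the Xbp1 messenger RNA, and the Xbp1 and Atf6 proteins then raise chaperones, oxidoreductases and degradation factors. Eif2ak3 and its sister kinases phosphorylate the initiation factor eIF2, which lowers general translation and favours Atf4, a factor that turns on amino acid synthesis, transport and transfer RNA charging. In marrow, plasma cells are known for a strong Xbp1 programme. The arrays give the amount of Xbp1 messenger RNA and not its splicing, and phosphorylation is not measured.

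Promoters that hold the elements known for each arm are shown first, since the arms are described separately. RefSeq promoter windows on GRCm38.p6, 250 bases before to 50 bases after the annotated start, were available for 22 Xbp1/Atf6-arm genes and all 12 Atf4-arm genes, among 27025 genes with a window. Both strands were searched for 4 motifs: ERSE (CCAAT, then 9 bases, then CCACG), ERSE-II (ATTGG, then any base, then CCACG), the core of the unfolded protein response element UPRE (TGACGTGG) and the core of the C/EBP-ATF element (TGATG, then any base, then AA). ERSE and ERSE-II share the letters CCACG, and the UPRE core ends in letters of their reverse complement (CGTGG). The windows shown are chr2:34771840-34772139 (Hspa5, plus strand), chr10:86705395-86705694 (Hsp90b1, minus strand), chr12:17266339-17266638 (Pdia6, plus strand), chr3:123267246-123267545 (Sec24d, plus strand), chr2:152344011-152344310 (Trib3, minus strand), chr6:7693160-7693459 (Asns, minus strand) and chr2:119350992-119351291 (Chac1, plus strand). Each runs 5′ to 3′ along its gene, with the motif in capitals: ERSE in the first 3, the UPRE core in Sec24d and the C/EBP-ATF core in the last 3, on either strand.
Hspa5: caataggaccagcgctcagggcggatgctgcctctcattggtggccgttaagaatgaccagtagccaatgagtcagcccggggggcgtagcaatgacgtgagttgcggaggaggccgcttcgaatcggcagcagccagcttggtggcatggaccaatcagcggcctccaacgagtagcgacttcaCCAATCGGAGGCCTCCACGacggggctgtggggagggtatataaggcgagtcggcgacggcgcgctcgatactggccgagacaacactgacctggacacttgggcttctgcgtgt
Hsp90b1: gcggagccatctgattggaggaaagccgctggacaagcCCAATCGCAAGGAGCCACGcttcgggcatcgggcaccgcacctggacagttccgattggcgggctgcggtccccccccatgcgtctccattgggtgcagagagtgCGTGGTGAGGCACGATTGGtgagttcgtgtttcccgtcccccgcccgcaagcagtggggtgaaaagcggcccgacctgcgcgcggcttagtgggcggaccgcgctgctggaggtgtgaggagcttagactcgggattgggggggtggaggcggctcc
Pdia6: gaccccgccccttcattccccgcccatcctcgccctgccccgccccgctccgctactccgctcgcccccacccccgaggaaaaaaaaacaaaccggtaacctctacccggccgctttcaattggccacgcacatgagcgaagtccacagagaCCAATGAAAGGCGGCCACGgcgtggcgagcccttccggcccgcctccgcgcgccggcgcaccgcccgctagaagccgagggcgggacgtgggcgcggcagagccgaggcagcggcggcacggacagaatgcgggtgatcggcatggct
Sec24d: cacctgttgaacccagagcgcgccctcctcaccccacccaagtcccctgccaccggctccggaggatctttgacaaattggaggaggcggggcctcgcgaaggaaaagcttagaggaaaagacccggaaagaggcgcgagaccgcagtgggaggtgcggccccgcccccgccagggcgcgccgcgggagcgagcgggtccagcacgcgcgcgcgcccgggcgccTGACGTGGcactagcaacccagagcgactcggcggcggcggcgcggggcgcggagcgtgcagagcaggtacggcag
Trib3: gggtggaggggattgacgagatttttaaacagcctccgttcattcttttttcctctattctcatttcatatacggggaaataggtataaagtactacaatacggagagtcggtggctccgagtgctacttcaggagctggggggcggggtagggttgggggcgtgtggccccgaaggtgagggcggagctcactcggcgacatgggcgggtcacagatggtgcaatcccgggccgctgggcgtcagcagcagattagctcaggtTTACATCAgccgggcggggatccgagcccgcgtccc
Asns: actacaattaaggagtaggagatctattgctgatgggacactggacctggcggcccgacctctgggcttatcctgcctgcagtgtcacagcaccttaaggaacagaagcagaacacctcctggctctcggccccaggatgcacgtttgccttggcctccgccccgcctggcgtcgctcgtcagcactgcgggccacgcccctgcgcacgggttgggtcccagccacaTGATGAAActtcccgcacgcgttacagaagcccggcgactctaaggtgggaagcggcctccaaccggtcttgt
Chac1: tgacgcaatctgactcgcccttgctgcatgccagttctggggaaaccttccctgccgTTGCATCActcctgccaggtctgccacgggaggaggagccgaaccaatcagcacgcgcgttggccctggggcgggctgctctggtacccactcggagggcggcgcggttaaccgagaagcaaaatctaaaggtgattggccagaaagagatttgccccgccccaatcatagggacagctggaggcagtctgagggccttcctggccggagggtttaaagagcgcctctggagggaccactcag

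ERSE was present in 8 of 22 Xbp1/Atf6-arm windows (36.4%) and in 0 of 12 Atf4-arm windows, against 0.137% of all windows. The 8 genes were Hspa5, Hsp90b1, Calr, Canx, Dnajc3, Creld2, Pdia6 and Syvn1, and Hsp90b1 held a match on each strand. The Hspa5 match began 65 bases before the start and the Pdia6 match 98 bases before it. ERSE-II stood in Dnajb11 and Herpud1 (0.0444% of all windows), and the UPRE core in Sec24d (0.714% of all windows). The C/EBP-ATF core was found in 4 of 12 Atf4-arm windows (33.3%), namely Trib3, Asns, Slc7a11 and Chac1, in 1 of 22 Xbp1/Atf6-arm windows (Herpud1) and in 4.51% of all windows. Among transfer RNA synthetase genes, which are outside both arms, 5 of 8 windows held it (62.5%). A match is a description of letters and no binding was measured.

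The arrays read as bone marrow in every mouse: the mean of 10 neutrophil markers was 11.4 to 12.4 and that of 9 erythroid markers 10.2 to 11.1 over the 18 arrays, on the log2 scale used for every level below. Array medians were 4.27 to 4.40. On 5 arrays the interquartile range over all probesets was 2.90 to 3.07 (CCAT2-G replicate 1, CCAT2-T replicates 1 and 2, WT replicates 1 and 2), and on the other 13 it was 3.15 to 3.36; these 5 are called narrow here. No CCAT2-GT array is narrow. Without the narrow arrays only replicates 3 and 4 remain of WT and of CCAT2-T, and replicates 2, 3 and 4 of CCAT2-G. The mean of the 26 Xbp1/Atf6-arm genes was 8.18 to 8.41 on the 5 narrow arrays and at least 8.46 on every other array, so array spread and this arm move together, and each comparison of the arm is given with and without these arrays. No label names a batch.

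Between CCAT2-GT and WT marrow, the Xbp1/Atf6 arm was higher in CCAT2-GT mice by a modest and widely shared amount: 24 of its 26 genes had a positive difference, where 49.5% of all 14505 genes did. The median difference of the arm was 0.29 on the log2 scale, beside -0.0017 over all genes, and single genes ran from -0.29 (Syvn1) to 0.61 (Sdf2l1). No gene of either arm passed the test, since limma gave adjusted p values of 1.00 for all 38 members and called 0 of 14505 genes (0%). At an unadjusted p under 0.05, 9 of the 26 were higher and 0 lower, beside 1.18% of all genes higher and 1.45% lower. In 6 of the 26 every CCAT2-GT mouse lay above every WT mouse (Xbp1, Hsp90b1, Sdf2l1, Pdia4, Pdia6 and Edem2), which 0.338% of all genes did. Without the narrow arrays the median of the arm was 0.20 with 22 of 26 genes higher, and with the narrow arrays as a block it was 0.11 with 20 of 26. When limma gave each array a weight by its fit, from 0.385 (WT replicate 4) to 4.50 (WT replicate 2), 456 genes (3.14%) passed between CCAT2-GT and WT mice, and 3 of the 38 members were among them and higher: Sec24d (0.80; adjusted p = 0.0163), Xbp1 (0.49; adjusted p = 0.0402) and Pdia4 (0.55; adjusted p = 0.0410).

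**Figure D1:**
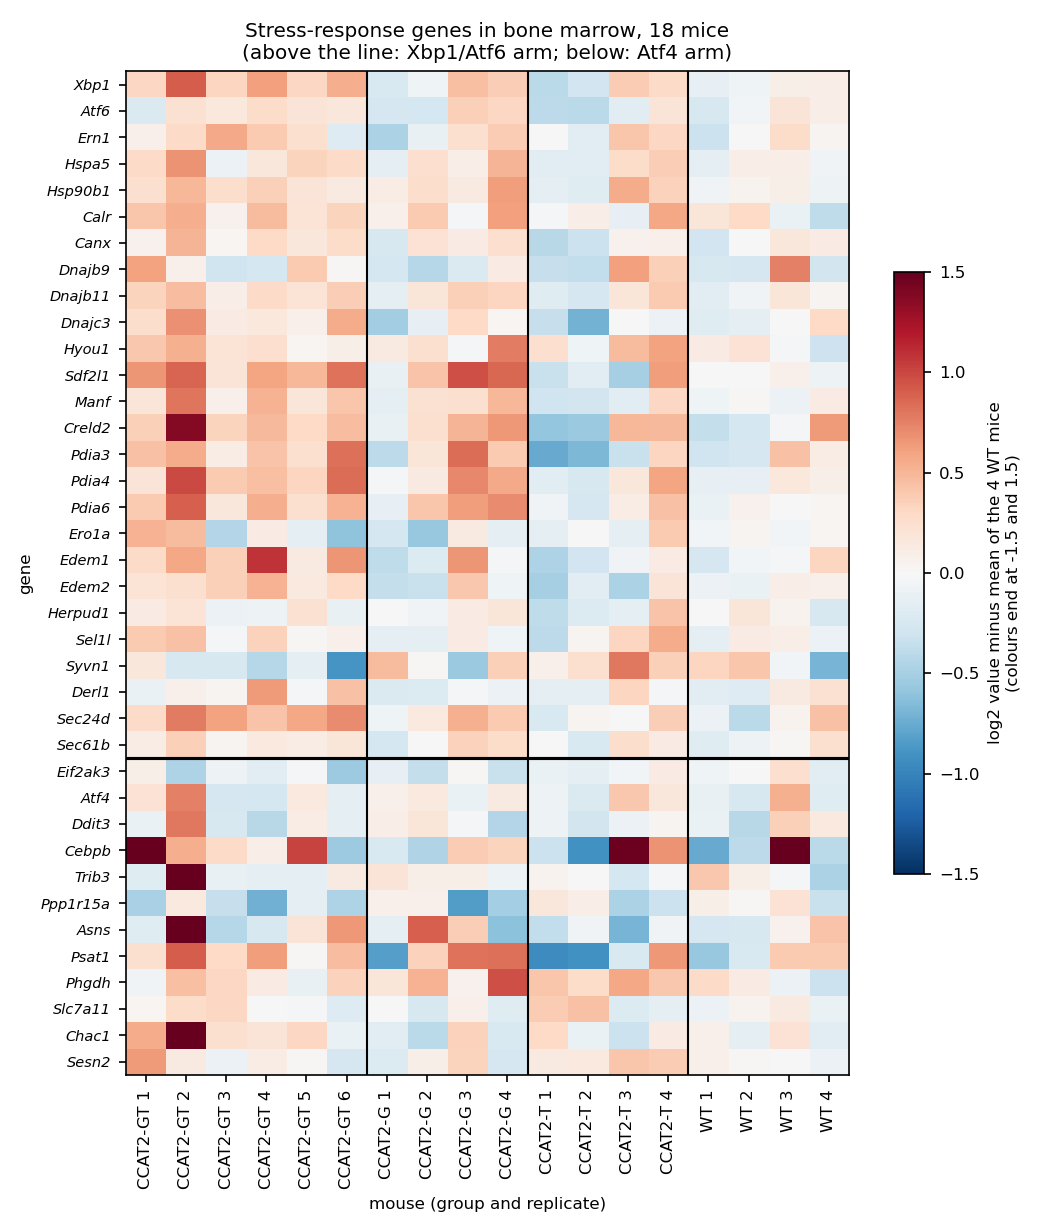
Log2 level of each of the 38 genes (rows) in each of the 18 mice (columns, CCAT2-GT, CCAT2-G, CCAT2-T and WT), drawn as the difference from the mean of the 4 WT mice, with the Xbp1/Atf6 arm above the thick line. The CCAT2-GT columns are mostly red above the line, CCAT2-T replicates 1 and 2 mostly blue, and CCAT2-GT replicate 2 is the column with the strongest red for Trib3, Asns and Chac1 below it.

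Among the sensors and the factor itself, Xbp1 differed most. Xbp1 had a lowest level of 10.28, a median of 10.41 and a highest level of 10.89 in CCAT2-GT mice, against 9.85, 9.91, 10.07 and 10.07 in WT mice. The ranges did not overlap, and the difference was 0.50 ± 0.17 (SE; 1.42-fold; limma unadjusted p = 0.00913, adjusted p = 1.00). Ern1, the kinase and nuclease that splices Xbp1, was 7.24 to 8.01 with a median of 7.70 in CCAT2-GT mice, against 7.12, 7.44, 7.72 and 7.48 in WT mice, an overlap, with a difference of 0.23 ± 0.18. Atf6, the membrane-bound factor released by proteolysis, was 6.21 to 6.70 with a median of 6.61 in CCAT2-GT mice, against 6.18, 6.38, 6.62 and 6.52 in WT mice, also overlapping, with a difference of 0.13 ± 0.16. The Atf6 value changed sign to -0.00947 without the narrow arrays and -0.058 with them as a block.

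All 11 chaperones and their helpers had positive differences, with a median of 0.29. Sdf2l1, a partner of the chaperone BiP, had a lowest level of 7.74, a median of 8.17 and a highest level of 8.43 in CCAT2-GT mice, against 7.54, 7.55, 7.63 and 7.48 in WT mice. The 4 WT mice lay close together and all below the CCAT2-GT mice, with a difference of 0.61 ± 0.25 (1.52-fold; limma unadjusted p = 0.0238, adjusted p = 1.00). Hspa5, which encodes BiP, was 10.20 to 10.96 with a median of 10.58 in CCAT2-GT mice, against 10.15, 10.39, 10.39 and 10.24 in WT mice. CCAT2-GT replicate 3, at 10.20, lay within the WT range, and the difference was 0.28 ± 0.15. Hsp90b1 (GRP94), the Hsp90 chaperone of the lumen, was 10.54 to 10.90 with a median of 10.65 in CCAT2-GT mice, against 10.34, 10.45, 10.48 and 10.32 in WT mice. Its groups did not overlap, with a difference of 0.28 ± 0.14 (unadjusted p = 0.0584, limma).

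Manf, a secreted stress-induced protein that binds BiP, was 0.36 ± 0.17 higher in CCAT2-GT than in WT mice, and Dnajb11, a J-domain helper of BiP, 0.29 ± 0.14 higher, with unadjusted limma p of 0.0409 and 0.0451. The lectin chaperone Calr, at 0.34 ± 0.16 with an unadjusted p of 0.0494, stood just inside that mark, and its membrane partner Canx differed by 0.22. Creld2, a stress-induced protein linked to disulphide exchange, differed by 0.55 ± 0.27, but its CCAT2-GT values held 1 mouse far above the others, replicate 2 at 8.16, with the other 5 between 7.08 and 7.27. Dnajc3, which restrains Eif2ak3, differed by 0.31, Hyou1, the exchange factor of BiP, by 0.25, and Dnajb9, another J-domain helper, by 0.09. In Dnajb9 the highest of the 18 mice was WT replicate 3 at 8.78.

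**Figure D2:**
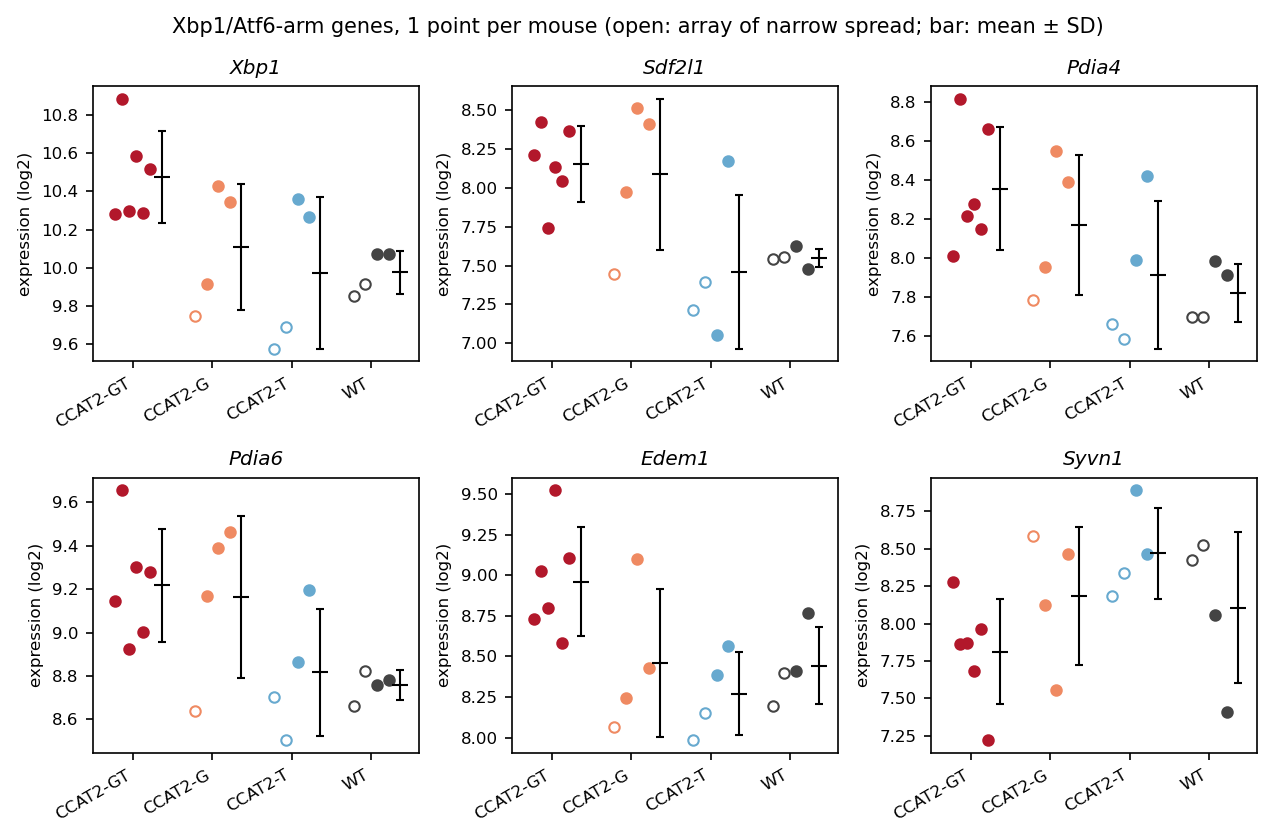
Log2 expression of 6 Xbp1/Atf6-arm genes, 1 point per mouse, in CCAT2-GT, CCAT2-G, CCAT2-T and WT mice, with bars for the mean and SD; open points are narrow arrays. For Xbp1, Sdf2l1, Pdia4 and Pdia6 all CCAT2-GT points lie above all WT points, the open points tend to the bottom of their groups, and Syvn1 shows no such order.

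Of 4 oxidoreductase genes, 3 had positive differences. Pdia4, a disulphide isomerase, had a lowest level of 8.01, a median of 8.25 and a highest level of 8.82 in CCAT2-GT mice, against 7.70, 7.70, 7.98 and 7.91 in WT mice, which did not overlap (0.53 ± 0.19; 1.45-fold; limma unadjusted p = 0.0128). Pdia6, an isomerase that limits Ern1 signalling, was 8.92 to 9.66 with a median of 9.21 in CCAT2-GT mice, against 8.66, 8.82, 8.76 and 8.78 in WT mice, again without overlap (0.46 ± 0.18; 1.38-fold; unadjusted p = 0.0191, limma). Pdia3, the isomerase that works with Calr and Canx, differed by 0.43 ± 0.26, with overlapping groups. Ero1a, the oxidase that recharges these isomerases, listed among the members under its older name Ero1l, differed by -0.01, and its CCAT2-GT mice ranged from 7.70 to 8.83, around 4 WT values between 8.27 and 8.35.

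In the degradation machinery the genes diverged. Edem1, which recognises misfolded glycoproteins for degradation, had a lowest level of 8.58, a median of 8.91 and a highest level of 9.53 in CCAT2-GT mice, against 8.19, 8.40, 8.41 and 8.76 in WT mice, with a difference of 0.52 ± 0.20 (1.43-fold; limma unadjusted p = 0.0180). Only WT replicate 4 reached into the CCAT2-GT range. Edem2, its relative that starts mannose trimming, was 7.19 to 7.57 in CCAT2-GT mice, against 6.96, 6.95, 7.15 and 7.12 in WT mice, without overlap (0.29 ± 0.16). Sel1l, the partner of the ubiquitin ligase Syvn1, differed by 0.21, the channel component Derl1 by 0.18 and the scaffold Herpud1 by 0.05. A second Edem1 probeset, at a mean of 7.94, differed by 0.24.

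Syvn1 (HRD1), the ligase itself, differed the other way. Syvn1 was 7.22 to 8.27 with a median of 7.87 in CCAT2-GT mice, against 8.43, 8.53, 8.06 and 7.41 in WT mice, a difference of -0.29 ± 0.24 with overlapping groups. Its promoter window was among those that held ERSE. For transport, the COPII coat subunit Sec24d had the smallest unadjusted p of all members (0.00282, limma; adjusted p = 1.00). Sec24d was 6.39 to 6.88 with a median of 6.69 in CCAT2-GT mice, against 6.01, 5.69, 6.15 and 6.54 in WT mice, with 1 WT mouse, replicate 4, inside the CCAT2-GT range and a difference of 0.56 ± 0.16 (1.48-fold). The translocon subunit Sec61b differed by 0.16.

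In the Atf4 arm 9 of 12 genes were higher in CCAT2-GT than in WT mice, and the median difference was 0.13. By limma 0 of 12 had an unadjusted p under 0.05, beside 1.18% of all genes higher and 1.45% lower. No gene of the arm separated the groups, as 0.338% of all genes did upward and 0.414% downward. Without CCAT2-GT replicate 2 the median was 0.01 with 7 of 12 genes above 0. Without the narrow arrays it was 0.03, also with 7 of 12, and without the 4 arrays of high Xist, the RNA of the inactive X chromosome (CCAT2-GT replicates 2, 3 and 5, CCAT2-T replicate 3) it was 0.01. No WT mouse is among these, so high Xist is unevenly spread over the groups, and its part in the differences was not tested. Without these arrays the median of the Xbp1/Atf6 arm was 0.33 with 24 of 26 genes higher.

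Of the 6 regulators in the Atf4 arm, 3 were above and 3 below 0, and without CCAT2-GT replicate 2 only Cebpb was above 0. Atf4 was 9.75 to 10.77 with a median of 10.01 in CCAT2-GT mice, against 9.90, 9.78, 10.55 and 9.83 in WT mice, with a difference of 0.07 ± 0.19. Its highest values came from CCAT2-GT replicate 2 and WT replicate 3, and without CCAT2-GT replicate 2 the difference was -0.062. Ddit3 (CHOP), a factor of prolonged stress, was 6.76 to 7.96 with a median of 7.04 in CCAT2-GT mice, against 7.07, 6.76, 7.52 and 7.32 in WT mice. The groups overlapped throughout and the difference, below 0.01 in size, changed sign under several alternatives. Eif2ak3 itself was 7.43 to 8.05 with a median of 7.85 in CCAT2-GT mice, against 7.90, 7.96, 8.22 and 7.80 in WT mice (-0.20 ± 0.14).

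Ppp1r15a (GADD34), which directs the removal of the phosphate from eIF2, was 9.03 to 9.89 with a median of 9.34 in CCAT2-GT mice, against 9.84, 9.76, 9.97 and 9.42 in WT mice (-0.34 ± 0.20; limma unadjusted p = 0.105). Only CCAT2-GT replicate 2 stood at the level of the higher WT mice. Cebpb, a transcription factor of granulocyte and monocyte cells, was 9.18 to 11.34 with a median of 10.14 in CCAT2-GT mice, against 8.96, 9.33, 11.27 and 9.31 in WT mice (0.50 ± 0.47). The mice with the highest Cebpb, CCAT2-GT replicates 1 (11.34) and 5 (10.73), CCAT2-T replicate 3 (11.19) and WT replicate 3 (11.27), were also the 4 mice with immediate-early gene means above 8 (9.18, 8.91, 9.32 and 9.81), and the part of that set in the result was not tested. Trib3, a pseudokinase that restrains Atf4, was 4.70 to 6.58 with a median of 4.76 in CCAT2-GT mice, against 5.28, 4.97, 4.86 and 4.41 in WT mice (0.21 ± 0.27). Apart from CCAT2-GT replicate 2 at 6.58, no mouse exceeded 5.28, and without that mouse the Trib3 difference was -0.09.

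**Figure D3:**
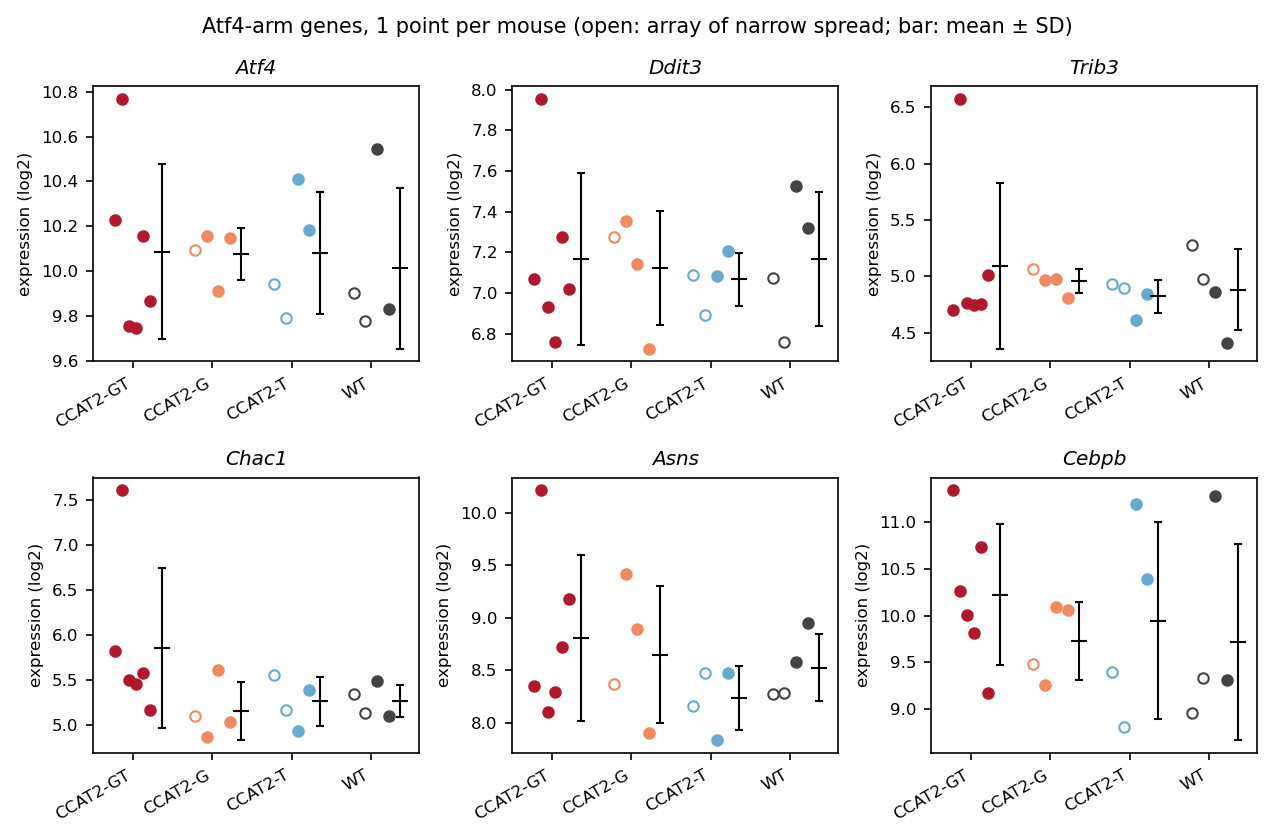
Log2 expression of 6 Atf4-arm genes, 1 point per mouse, in CCAT2-GT, CCAT2-G, CCAT2-T and WT mice, with bars for the mean and SD; open points are narrow arrays. CCAT2-GT replicate 2 is the top point for Atf4, Ddit3, Trib3 (6.58), Chac1 (7.61) and Asns (10.22) but not for Cebpb.

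The 6 amino acid and redox genes all had positive differences, with a median of 0.23. Without CCAT2-GT replicate 2 all 6 stayed above 0, with a median of 0.10. Chac1, which degrades glutathione, had a lowest level of 5.17, a median of 5.54 and a highest level of 7.61 in CCAT2-GT mice, against 5.34, 5.14, 5.49 and 5.11 in WT mice (0.59 ± 0.32; limma unadjusted p = 0.0839). Without CCAT2-GT replicate 2 the Chac1 difference was 0.24. Asns, which makes asparagine, was 8.10 to 10.22 with a median of 8.53 in CCAT2-GT mice, against 8.28, 8.28, 8.58 and 8.95 in WT mice (0.28 ± 0.35), and without CCAT2-GT replicate 2 its difference was 0.0016. Psat1, an enzyme of serine synthesis, was 6.74 to 7.64 with a median of 7.11 in CCAT2-GT mice, against 6.16, 6.50, 7.12 and 7.12 in WT mice (0.43 ± 0.35), and with the narrow arrays as a block its value was -0.16. Phgdh, the first enzyme of that route, differed by 0.18, Sesn2, which restrains the growth kinase mTORC1, by 0.09, and the cystine transporter Slc7a11, close to the limit on dim genes, by 0.07.

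CCAT2-GT and DRAI- mice both carry CCAT2, and they differ in DRAI status and in genotype, which cannot be told apart. The comparison uses the same 6 CCAT2-GT arrays as the one against WT, so the directions of both are not independent. Of the Xbp1/Atf6-arm genes, 24 of 26 were higher in CCAT2-GT than in DRAI- mice, where 48.3% of all genes were, with a median of 0.22. The unadjusted limma p was under 0.05 for 8 genes higher and 1 lower, beside 3.84% of all genes higher and 5.73% lower, and 0 of 14505 genes (0%) passed after adjustment. No member separated the 2 groups, as 0.00689% of all genes did upward and 0.0896% downward. Without the narrow arrays, 3 of which are DRAI-, the median was 0.05 with 18 of 26 genes above 0, and with them as a block it was 0.09 with 21 of 26.

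Edem1 was 8.58 to 9.53 with a median of 8.91 in CCAT2-GT mice, against 7.98 to 9.10 with a median of 8.31 in DRAI- mice (0.60 ± 0.17; 1.51-fold; limma unadjusted p = 0.00212, adjusted p = 0.456). Its relative Edem2 was 7.19 to 7.57 with a median of 7.32 in CCAT2-GT mice, against 6.54 to 7.45 with a median of 6.80 in DRAI- mice (0.46 ± 0.13; 1.37-fold; adjusted p = 0.456, limma). Dnajc3 was 8.41 to 9.01 with a median of 8.54 in CCAT2-GT mice, against 7.62 to 8.63 with a median of 8.23 in DRAI- mice (0.49 ± 0.15; 1.41-fold; adjusted p = 0.456, limma). In each of the 3 genes most DRAI- mice lay below the lowest CCAT2-GT mouse and the highest DRAI- mouse lay inside the CCAT2-GT range. A second Edem1 probeset, at a mean of 7.94, differed less, by 0.31.

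Xbp1 was 10.28 to 10.89 with a median of 10.41 in CCAT2-GT mice, against 9.57 to 10.43 with a median of 10.09 in DRAI- mice (0.44 ± 0.14; 1.35-fold; limma adjusted p = 0.456). Sec24d was 6.39 to 6.88 with a median of 6.69 in CCAT2-GT mice, against 5.87 to 6.64 with a median of 6.20 in DRAI- mice (0.42 ± 0.14; adjusted p = 0.456, limma). The DRAI- mice spread widely in both genes, with CCAT2-T replicate 1 lowest for Xbp1. Syvn1 again ran the other way, at 7.22 to 8.27 with a median of 7.87 in CCAT2-GT mice, against 7.55 to 8.89 with a median of 8.40 in DRAI- mice (-0.51 ± 0.20; limma unadjusted p = 0.0198, adjusted p = 0.486). Pdia3 (0.49), Manf (0.31) and Canx (0.26) were the others under 0.05 unadjusted, while Hsp90b1 (0.07) and Hyou1 (-0.04) differed little by the probesets used. A second Hsp90b1 probeset, at a mean of 9.66, differed by 0.35.

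**Figure D4:**
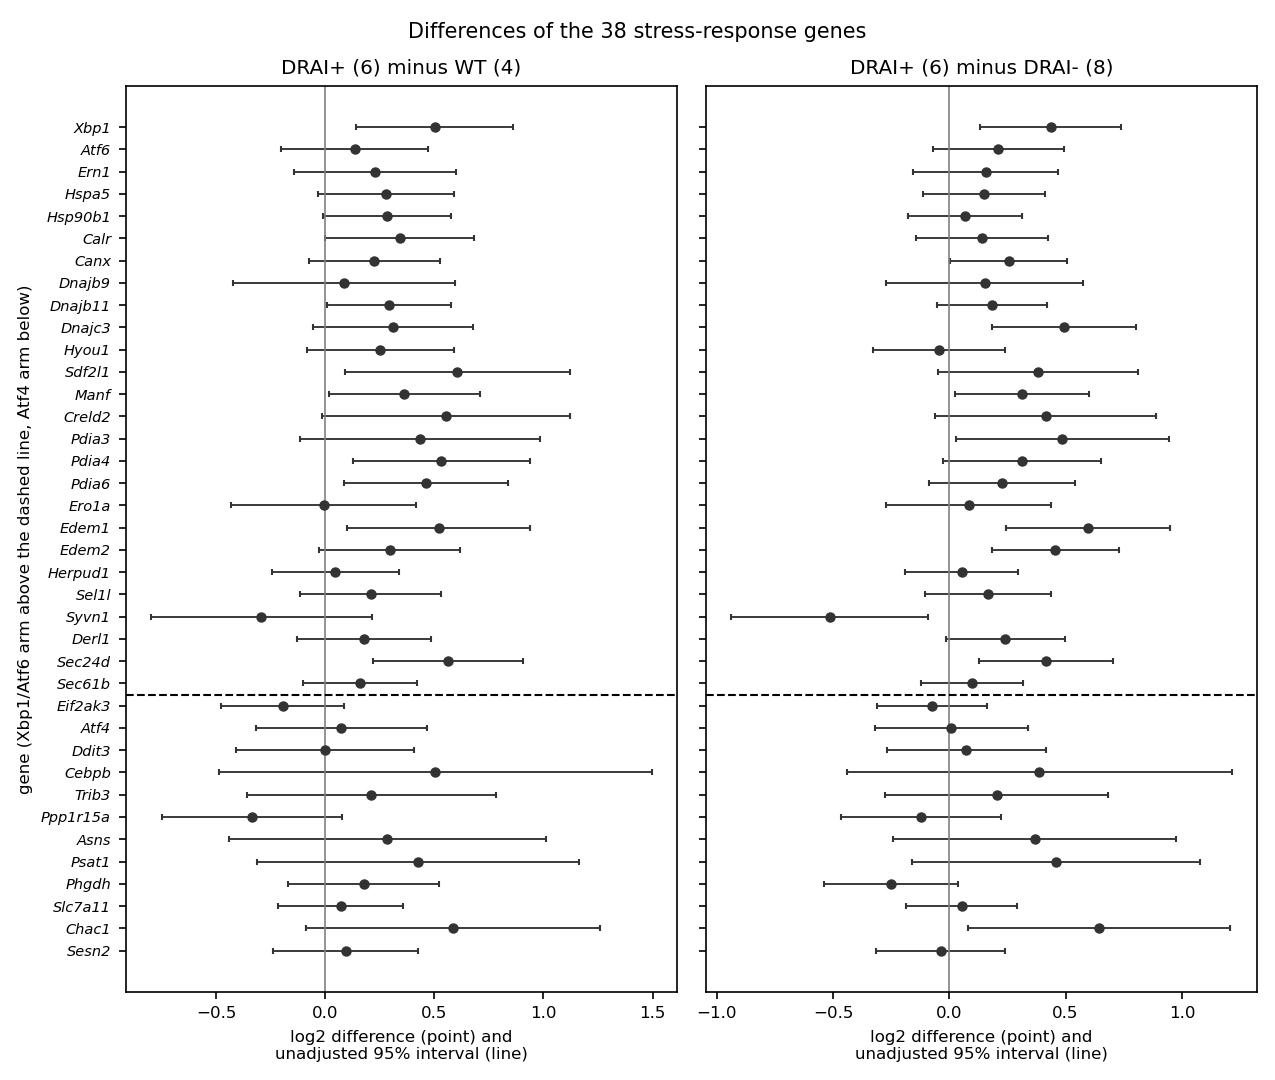
Log2 differences of the 38 genes (points) with unadjusted 95% intervals from the limma fit (lines), for DRAI+ minus WT on the left and DRAI+ minus DRAI- on the right; DRAI+ mice are the CCAT2-GT mice. Most points above the dashed line lie right of 0 in both panels, Syvn1 lies left of 0 in both, and the intervals of the Atf4 arm are wide.

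In the Atf4 arm 8 of 12 genes were higher in CCAT2-GT than in DRAI- mice, with a median of 0.06. Chac1 was 5.17 to 7.61 with a median of 5.54 in CCAT2-GT mice, against 4.87 to 5.61 with a median of 5.14 in DRAI- mice (0.64 ± 0.27; limma unadjusted p = 0.0272, adjusted p = 0.486). Psat1 (0.46 ± 0.30), Asns (0.37 ± 0.29) and Phgdh (-0.25 ± 0.14) had the next smallest p. For Phgdh only 1 of 3 other probesets had the sign of the probeset used, with differences of -0.096, 0.052 and 0.046. Without CCAT2-GT replicate 2 the median of the arm was -0.03, Chac1 differed by 0.29 and Asns by 0.08. Of the 6 regulators, 4 were above 0 with all mice and only 1, Cebpb, without that mouse.

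Between DRAI- and WT mice, in the Xbp1/Atf6 arm 16 of 26 genes were higher in DRAI- mice, where 50.2% of all genes were, with a median of 0.06 and no unadjusted p under 0.05 (0.993% of all genes higher, 0.365% lower). No member separated the groups in either direction (0.0345% and 0.0276% of all genes). In the Atf4 arm 6 of 12 were higher, with a median of -0.01. Phgdh was the member of smallest p: it was 8.09 to 8.99 with a median of 8.44 in DRAI- mice, against 8.31, 8.15, 7.93 and 7.70 in WT mice (0.43 ± 0.16; 1.34-fold; limma unadjusted p = 0.0130, adjusted p = 0.999). Hyou1 (0.30 ± 0.15), Hsp90b1 (0.22 ± 0.13), Pdia6 (0.23 ± 0.17), Pdia4 (0.22 ± 0.18) and Calr (0.20 ± 0.15) followed in the folding genes, and Edem2 was -0.16 ± 0.15. Ppp1r15a differed by -0.21, Sesn2 by 0.13 and Eif2ak3 by -0.12. Within the 5 narrow arrays, 3 DRAI- against 2 WT, 2 of 26 Xbp1/Atf6-arm genes were higher in DRAI- mice with a median of -0.13, and without these arrays the median was 0.16 with 19 of 26.

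Between the alleles, 19 of 26 Xbp1/Atf6-arm genes were higher in CCAT2-G than in CCAT2-T mice (49.4% of all genes), with a median of 0.14, and 5 of 12 Atf4-arm genes, with a median of -0.06. Without the narrow arrays the median of the Xbp1/Atf6 arm was 0.0054 with 14 of 26 genes higher, and over mice left out it ran from 0.06 (without CCAT2-T replicate 1) to 0.28 (without CCAT2-T replicate 4). Sdf2l1 had 7.44, 7.98, 8.52 and 8.41 in CCAT2-G mice, against 7.22, 7.40, 7.05 and 8.18 in CCAT2-T mice (0.63 ± 0.23; 1.54-fold; limma unadjusted p = 0.0156, adjusted p = 0.743). Pdia3 had 8.79, 9.36, 10.02 and 9.58 in CCAT2-G mice, against 8.43, 8.51, 8.84 and 9.51 in CCAT2-T mice (0.62 ± 0.26; unadjusted p = 0.0273, limma). These were the 2 genes of either arm with an unadjusted p under 0.05 (4.21% of all genes higher, 2.08% lower), and no member separated the alleles (1.16% and 1.13% of all genes). Both genes overlapped between the alleles, with 2 of the 4 CCAT2-T arrays and 1 of the 4 CCAT2-G arrays among the narrow ones. Psat1 differed by 0.65 ± 0.37 and Sesn2 by -0.28 ± 0.17.

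Against WT, 20 of 26 Xbp1/Atf6-arm genes were higher in CCAT2-G mice (53.2% of all genes), with a median of 0.11, and 15 of 26 in CCAT2-T mice (50.5% of all genes), with a median of 0.03. Without the narrow arrays these medians were 0.15 with 19 of 26 genes higher in CCAT2-G mice and 0.17 with 18 of 26 in CCAT2-T mice. Those fits rest on few mice, with only replicates 3 and 4 left of WT and of CCAT2-T. Replicate 3 of both groups was high in immediate-early genes, and WT replicate 4 was among the 3 arrays richest in stromal, bone and endothelial markers. Over mice left out the CCAT2-G median ran from 0.04 (without CCAT2-G replicate 4) to 0.23 (without CCAT2-G replicate 1). The CCAT2-T median ran from -0.08 (without CCAT2-T replicate 4) to 0.11 (without CCAT2-T replicate 2) and was also below 0 without CCAT2-T replicate 3, WT replicate 1 or WT replicate 2. The median of the Atf4 arm was -0.00 in CCAT2-G mice and -0.02 in CCAT2-T mice. CCAT2-G mice were higher than WT mice for Sdf2l1 (0.54 ± 0.23), Pdia6 (0.41 ± 0.18) and Phgdh (0.43 ± 0.18), with unadjusted limma p of 0.0343, 0.0407 and 0.0302 (0.917% of all genes), and all 4 CCAT2-G mice lay above the WT mice for Hsp90b1 (0.462% of all genes). CCAT2-T mice had a Phgdh difference of 0.42 ± 0.18 (unadjusted p = 0.0350; 1.7% of all genes), and all 4 lay above the WT mice for Sesn2 (0.848% of all genes, 0.841% below). With array weights the CCAT2-T median of the Xbp1/Atf6 arm was -0.08, with 7 of 26 genes higher. The CCAT2-T differences of Hyou1 (0.31 ± 0.18) and Dnajc3 (-0.29 ± 0.19) and the CCAT2-G difference of Eif2ak3 (-0.20 ± 0.15) complete the named genes. No adjusted p passed, and both comparisons use the same 4 WT mice.

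Across the 18 mice, CCAT2-GT replicate 2 was the highest mouse for 11 of 26 Xbp1/Atf6-arm genes and 6 of 12 Atf4-arm genes, where it was the highest for 5.72% of all genes. It had 10.89 for Xbp1 (next mouse 10.59), 8.16 for Creld2 (next 7.43), 10.77 for Atf4 (next 10.55) and 7.96 for Ddit3 (next 7.52). Among the members the gap was widest in 3 known targets of Atf4: Chac1 had 7.61 and the next mouse 5.82, Trib3 6.58 and 5.28, Asns 10.22 and 9.41. In this mouse 9 of 14505 genes (0.0620%) stood more than 1 above the next mouse, 2 of them Chac1 and Trib3 and another Mthfd2, a mitochondrial folate enzyme, at 9.17 against 7.62. The same mouse was highest for 10 of 12 transfer RNA synthetases and 7 of 13 other amino acid genes, among them Shmt2 (7.99, next 7.41) and the transporter chain Slc3a2 (9.59, next 9.05). At the other end, CCAT2-T replicates 1 and 2, both narrow, were the lowest mice for 9 and 7 of the 26 Xbp1/Atf6-arm genes, beside 10.1% and 4.86% of all genes.

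Other genes of the same pathways, 103 measured outside the 38, gave counts in the same direction between CCAT2-GT and WT mice: 76 of 103 were higher in CCAT2-GT mice, with a median of 0.13. None passed after adjustment. Txndc5, an oxidoreductase, differed by 0.54 ± 0.22 (limma unadjusted p = 0.0262, adjusted p = 1.00), and Stt3a, a catalytic subunit of the oligosaccharyltransferase, by 0.31 ± 0.14 (limma unadjusted p = 0.0314, adjusted p = 1.00), and no other gene of these had an unadjusted p under 0.05, beside 1.18% of all genes higher and 1.45% lower. Other folding genes were higher in 16 of 17 (P4hb 0.46 ± 0.23), and all CCAT2-GT mice lay above all WT mice for Erp44 and Dnajc1, as for 0.338% of all genes. Translocation and glycosylation genes were higher in 19 of 23 (Rpn2 0.33 ± 0.17) and transfer RNA synthetases in 11 of 12 (Yars 0.22 ± 0.12, Eprs 0.27 ± 0.18). The mean of the synthetases per mouse had a median of 7.58 in CCAT2-GT mice and 7.57 in WT mice. Its highest value, 8.19, belonged to CCAT2-GT replicate 2.

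Other degradation genes were higher in 8 of 15 (Selenos 0.27 ± 0.19, Os9 0.15 ± 0.10), other regulators of the unfolded protein response in 8 of 10 (Creb3l1 0.26 ± 0.15, Wfs1 0.23 ± 0.14), other amino acid genes in 9 of 13 (Shmt2 0.43 ± 0.29, Slc1a5 -0.22 ± 0.17) and other regulators of the integrated stress response in 5 of 13 (Nupr1 0.65 ± 0.37, Gadd45a -0.37 ± 0.22). The mean of the other amino acid genes per mouse had a median of 6.98 in CCAT2-GT mice and 6.99 in WT mice. Its highest value, 7.63, again belonged to CCAT2-GT replicate 2. Between CCAT2-GT and DRAI- mice, 68 of 103 were higher, with a median of 0.09 and unadjusted p under 0.05 for 12 higher and 3 lower, beside 3.84% of all genes higher and 5.73% lower.

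Markers of other marrow cells are set beside these results, and in whole marrow fewer cells of a type and less RNA per cell cannot be told apart. The mean of 13 plasma cell markers was 6.57 to 7.14 with a median of 6.74 in CCAT2-GT mice, and 6.69 to 7.15 with a median of 6.92 in DRAI- mice, against 7.15, 7.10, 6.69 and 6.93 in WT mice. Of these markers 4 of 13 were higher in CCAT2-GT mice, with a median of -0.13; the list shares Txndc5 and Derl3 with the pathway genes. Jchain, the joining chain of secreted antibodies, averaged 11.07 ± 0.83 in CCAT2-GT mice and 11.62 ± 0.14 in WT mice (SD, n = 6 and 4), and the surface proteoglycan Sdc1 averaged 5.77 ± 0.42 in CCAT2-GT mice and 5.65 ± 0.40 in WT mice. Prdm1, a factor of plasma cells and of some myeloid cells, was 0.46 ± 0.17 higher (limma unadjusted p = 0.0145, adjusted p = 1.00). Its mean level of 3.83 was near the limit on dim genes, and CCAT2-GT replicate 2 was its highest mouse at 4.76 (next 4.21). With the mean of the plasma cell markers as a covariate the median of the Xbp1/Atf6 arm was 0.22 with 23 of 26 genes higher.

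All B-cell markers were below 0 in difference. Their mean was 5.11 to 7.22 with a median of 6.27 in CCAT2-GT mice, against 8.35, 8.26, 6.77 and 6.31 in WT mice, and 0 of 15 markers were higher in CCAT2-GT mice, with a median of -1.14. Against DRAI- mice, whose B-cell mean was 5.37 to 8.51 with a median of 8.16, again 0 of 15 were higher in CCAT2-GT mice, with a median of -1.35. The unadjusted limma p was under 0.05 for 14 of these markers, beside 5.73% of all genes lower, and 0 of 14505 genes passed after adjustment. The lowest B-cell mean of all 18 mice, 5.11, belonged to CCAT2-GT replicate 2. Monocyte markers were higher in 8 of 9 (median 0.36), with a mean of 8.05 to 8.71 in CCAT2-GT mice, against 7.40, 7.73, 7.95 and 8.22 in WT mice. Mast cell, basophil and eosinophil markers were higher in 10 of 10 (0.29), megakaryocyte markers in 6 of 7 (0.47), neutrophil precursor markers in 4 of 6 (0.17), mature neutrophil markers in 4 of 10 (-0.03), T and NK cell markers in 5 of 8 (0.02), stromal, bone and endothelial markers in 6 of 12 (-0.02), immediate-early genes in 9 of 12 (0.21) and erythroid markers in 0 of 9 (-0.28). The 5 narrow arrays had B-cell means of 8.13 to 8.51 and monocyte means of 7.22 to 7.73. The part of these cell types in the differences of the 2 arms was not tested.

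**Figure D5:**
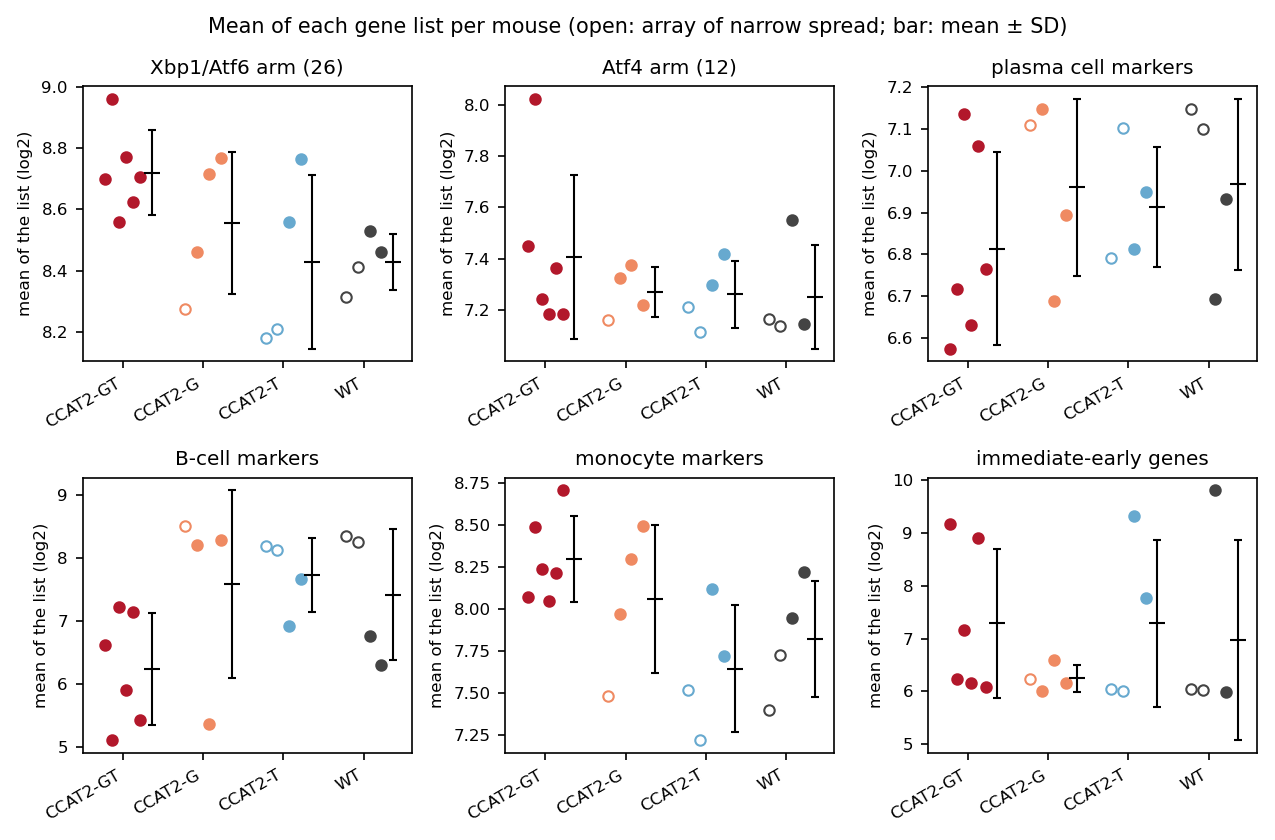
Mean log2 level of 6 gene lists in each mouse (1 point per mouse; CCAT2-GT, CCAT2-G, CCAT2-T and WT), with bars for the mean and SD; open points are narrow arrays. The Xbp1/Atf6 arm is lowest on the 5 open points (8.18 to 8.41), the B-cell markers are high there, and CCAT2-GT replicate 2 tops both arms (8.96 and 8.02) with the lowest B-cell mean.

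In the CCAT2-GT comparisons, further probesets above the limit on dim signals mostly ran the same way. For CCAT2-GT against WT, 39 of 44 other probesets, from 25 genes, had the sign of the probeset used, and for CCAT2-GT against DRAI- 37 of 44. The exceptions against WT were 1 of 2 for Ern1, 1 of 2 for Hspa5, 2 of 2 for Ero1a and 1 of 2 for Atf4. Of 8 further probesets below that limit, 5 had the sign of the probeset used against WT, and 2 of Ern1 and 1 of Edem2 did not. Above the limit, fewer ran the same way elsewhere: 34 of 44 for DRAI- against WT and 30 of 44 for CCAT2-G against WT. For CCAT2-T against WT it was 27 of 44 and for CCAT2-G against CCAT2-T 24 of 44, so directions there depend on the probeset. With the mean of each gene's probesets, 15 of 38 members were higher in CCAT2-T than in WT mice, against 20 with the brightest. The counts for CCAT2-G against WT (26) and against CCAT2-T (24) did not change.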

How the data were processed

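Bone marrow RNA of 18 mice was hybridised to Affymetrix arrays, per the labels' protocols. The authors deposited log2 expression values for 45101 probesets, made with RMA, per the submitters' processing notes. Its version is not given in the sources used here, and the log2 scale was read from the values (1.56 to 14.2). Arrays give no read depth, so their number limits the precision. Of the probesets, 34958 had 1 gene symbol in the platform annotation, 932 had several and 9211 had none listed. The first kind gave 18194 genes, each by its brightest probeset, and 14505 had a mean at or above the 30th percentile of probeset means. Ero1l was matched to Ero1a as a RefSeq synonym.

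All 18 arrays entered each linear model, which had 3 groups for the DRAI comparisons or 4 for the alleles, and limma (version 3.58.1, under R 4.3.3) moderated the variances with a trend on mean level. Adjusted p is the Benjamini-Hochberg value across the 14505 genes, called at 0.05. Differences are the first group minus the second, ± SE; errors of means are SD. Arms are described by counts and medians, with no test of their own. The fit was tested on simulated data. The members and lists were chosen with earlier results of these data known. Named with full statistics are up to 6 Xbp1/Atf6-arm and 4 Atf4-arm genes of smallest p in each DRAI comparison and up to 2 per arm for the alleles. Xbp1, Atf6, Ern1, Eif2ak3, Atf4, Ddit3 and Hspa5 were added whatever their values, as were the 2 of smallest p per list of other pathway genes. Further members are given to account for all 38.

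Same-numbered mice of different groups were checked for pairing: over 24 pairs, deviations from group means correlated at -0.36 to 0.67 and 11 exceeded 0.1. Only between CCAT2-T and WT mice did all 4 (0.19 to 0.57), a hint from the data that no label bears out, and the block changed no call in any comparison. Alternatives varied normalization, filter, probesets, moderation, weights, covariates and arrays left out.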

Additional observations from a re-analysis of the deposited data

Results flagged for a closer look

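In 160 sets of values, each the values of a member or of an arm mean in 1 group of 4 to 6 mice, 9 held a mouse that stood apart from the rest of its group by the gap to its nearest neighbour. Chance gives about 1 in 20 such groups, 5% of them, so a number of this size is near what chance gives. Of the 9, 4 belonged to CCAT2-GT replicate 2, which was far above the other CCAT2-GT mice for Creld2 (8.16), Trib3 (6.58), Chac1 (7.61) and the mean of the Atf4 arm (8.02). Another 4 belonged to WT replicate 3, which was far above the other WT mice for Dnajb9 (8.78), Atf4 (10.5), Cebpb (11.3) and the mean of the Atf4 arm (7.55), and whose immediate-early mean of 9.81 was the highest of the 18 mice. The remaining mouse, CCAT2-GT replicate 1, was far below the other CCAT2-GT mice for Atf6 (6.21).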

How the results depend on the processing

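The count of genes past an adjusted p of 0.05 stayed at 0 in each comparison except in the following fits. With array weights, 456 of 14505 genes (3.14%) were called between DRAI+ and WT mice, among them Sec24d, Xbp1 and Pdia4. In that fit the narrow WT replicates 1 and 2 had weights of 2.38 and 4.50, against 0.513 and 0.385 for WT replicates 3 and 4. Leaving out 1 mouse at a time gave 0 to 7 calls between DRAI+ and DRAI- mice, the 7 without CCAT2-G replicate 3, and 0 to 1 between CCAT2-G and CCAT2-T mice. The CCAT2-G and CCAT2-T comparison also gave 1 with quantile normalization and 1 with the filter at the 50th percentile. For DRAI+ minus WT the arm medians ranged over mice left out from 0.24 to 0.32 (Xbp1/Atf6 arm) and 0.01 to 0.18 (Atf4 arm), and with the replicate block, which made 0 calls in every comparison, they were 0.33 and 0.20. For DRAI+ minus DRAI- the ranges were 0.17 to 0.26 and -0.03 to 0.12, and for DRAI- minus WT 0.01 to 0.12 and -0.07 to 0.05. Only CCAT2-T and WT mice met the pairing rule, and the block left the CCAT2-T medians at 0.03 (Xbp1/Atf6 arm) and -0.02 (Atf4 arm).

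The following values changed sign. For genes not named in a comparison, changes of sign are given only for CCAT2-GT replicate 2 left out. For DRAI+ minus WT, Atf6 was -0.00947 without the narrow arrays and -0.058 with them as a block, Psat1 was -0.16 with that block, and Atf4 was -0.00814 with the plasma cell covariate, -0.10 without the narrow arrays, -0.058 with the block, -0.066 without the Xist-high arrays and -0.062 to 0.25 over mice left out. Trib3 was -0.09 without CCAT2-GT replicate 2. Ddit3 was 0.0023 with median centring, 0.24 with array weights, 0.00929 with the replicate block, 0.080 with the identifier letter as covariate, 0.19 without the 3 stroma-rich arrays, 0.12 without the immediate-early-high arrays and -0.16 to 0.12 over mice left out. For DRAI+ minus DRAI-, Psat1 was -0.0553 without the narrow arrays. Without CCAT2-GT replicate 2, Trib3 was -0.093, Atf4 -0.13, Ddit3 -0.085 and Ero1a -0.014 in that comparison, from 0.20, 0.0083, 0.073 and 0.083 with all mice. For DRAI- minus WT within the narrow arrays, Hyou1 was -0.063, Hsp90b1 -0.065, Pdia6 -0.13, Calr -0.19, Pdia4 -0.018, Sesn2 -0.017 and Ppp1r15a 0.059. The causes were not tested. The within-narrow and immediate-early alternatives were chosen after seeing the data.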

Other observations

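Outside both arms, 12 of the 103 other pathway genes were higher and 3 lower in CCAT2-GT than in DRAI- mice at an unadjusted limma p under 0.05, beside 3.84% of all genes higher and 5.73% lower, and none passed after adjustment. Genes of the translocon and of glycosylation were among those higher, such as Ssr4 (0.53 ± 0.25), Ssr2 (0.40 ± 0.18), Dad1 (0.36 ± 0.14) and the signal peptidase subunit Spcs3 (0.32 ± 0.12). The disulphide isomerase P4hb was 0.58 ± 0.19 higher and Creb3l2, a membrane-bound transcription factor, 0.39 ± 0.16 higher. Those lower were the degradation genes Ube2g2 (-0.31 ± 0.11) and Edem3 (-0.27 ± 0.11) and the translocon partner Sec63 (-0.23 ± 0.11).

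In CCAT2-GT replicate 2, the genes more than 1 above every other mouse also held Saa3, an acute-phase protein (9.81, next mouse 6.50), Ighg3, an antibody heavy chain (10.2, next 8.73), and Cish, a target of cytokine signalling (7.60, next 6.33). These 3 were chosen after their values were seen. CCAT2-GT replicate 6 had 54 such genes, with 0 members among them.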
